A study of Mus musculus with 6 samples.

Results

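Described here are 9 receptor genes of natural killer (NK) cells and related lymphocytes: Klrg1, Klre1, Klri1, Klri2, Lair1, Cd300a, Ceacam1, Lilrb4a and Cd160. They were taken by symbol from a count table of 23841 genes, and all 9 were found there and passed the filter on low counts. RNA was sequenced from cells sorted from the kidneys of naive wild-type C57BL/6 mice. The labels give no age. Type 1 innate lymphoid cells (ILC1), which are tissue lymphocytes, were gated on NK1.1 and NKp46 without CD3, with CD49a and with low to intermediate CD49b. Conventional NK cells (cNK), the circulating cytotoxic counterpart, shared the NK1.1, NKp46 and CD3 gates and had high CD49b. Each population was sampled as 3 pools. The labels state neither the number of mice in a pool nor whether different pools held different mice. All p-values therefore rest on the spread between these pools, which may be technical.

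Most of these receptors damp lymphocyte activation. An inhibitory receptor of this kind carries an immunoreceptor tyrosine-based inhibitory motif (ITIM) in its cytoplasmic tail, or pairs with a chain that does, and once phosphorylated by Src-family kinases the motif recruits the phosphatases SHP-1, SHP-2 or SHIP-1. Klrg1 binds cadherins and marks mature NK cells, Lair1 binds collagens, Cd300a binds phosphatidylserine on dying cells, Ceacam1 binds itself on neighbouring cells, and Lilrb4a (gp49B) was first described on mast cells. Klre1 is a lectin-like chain that pairs with Klri1, which has ITIMs, or with Klri2, which instead associates with an activating adaptor. Cd160 is anchored by a lipid, has no ITIM and binds the herpesvirus entry mediator, encoded by Tnfrsf14, so the inhibitory label covers it only loosely.

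On GRCm38 the lectin-like genes lie on chromosome 6. Klrg1 occupies 122270596 to 122282882 on the minus strand, and Klre1 129577905 to 129585827 on the plus strand. Klri1 (129697218 to 129717132) and Klri2 (129729041 to 129740484) are neighbours on the minus strand, with Klrd1, Klrk1 and the Klrc genes between Klre1 and Klri1. The other genes are scattered, with Lair1 and Ceacam1 on chromosome 7, Lilrb4a on chromosome 10, Cd300a on chromosome 11 and Cd160 on chromosome 3. RefSeq promoter windows of 300 bases (250 before the start and 50 after it, GRCm38.p6) were given for 6 of the genes, and those of Klrg1, Klri2 and Lilrb4a were not analysed here. The windows of Klre1, Klri1 and Cd160 are shown because Klre1 and Klri1 are partners in 1 gene complex, and Cd160 had the highest mean level of the 9 in ILC1. Capitals mark matches, on either strand, to TCACAC, the short core bound by T-box factors, or to TGTGGT, a Runx core.
Klre1, chr6:129578036-129578335, plus strand: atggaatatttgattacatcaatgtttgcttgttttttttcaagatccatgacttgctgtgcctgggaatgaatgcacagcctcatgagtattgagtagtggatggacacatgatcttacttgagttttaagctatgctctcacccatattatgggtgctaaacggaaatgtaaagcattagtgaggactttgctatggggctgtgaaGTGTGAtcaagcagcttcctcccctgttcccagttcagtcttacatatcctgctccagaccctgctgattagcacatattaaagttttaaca
Klri1, chr6:129717083-129717382, minus strand: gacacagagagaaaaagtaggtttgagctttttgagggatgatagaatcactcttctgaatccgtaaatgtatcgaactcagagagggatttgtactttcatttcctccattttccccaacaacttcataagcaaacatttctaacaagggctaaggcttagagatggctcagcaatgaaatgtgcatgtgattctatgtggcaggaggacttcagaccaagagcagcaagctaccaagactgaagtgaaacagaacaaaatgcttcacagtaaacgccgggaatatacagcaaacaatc
Cd160, chr3:96814472-96814771, minus strand: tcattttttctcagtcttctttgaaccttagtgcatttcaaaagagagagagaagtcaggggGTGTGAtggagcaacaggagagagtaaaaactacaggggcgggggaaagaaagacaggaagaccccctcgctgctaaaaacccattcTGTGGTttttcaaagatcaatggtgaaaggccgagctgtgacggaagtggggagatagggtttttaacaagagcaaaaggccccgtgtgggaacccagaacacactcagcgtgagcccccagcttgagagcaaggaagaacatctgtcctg

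On the reverse strand, the Klre1 window holds TCACAC at position -42 and the Cd160 window holds it at -188, and the Cd160 window has TGTGGT on the strand shown at -101. Positions are those of the leftmost letter as printed, with the start counted as 0. Klre1 and Cd160 each have another annotated window, and both of those hold both motifs, for Cd160 at -186 and -76 and for Klre1 at 31 and -229. The Klre1 windows overlap, and the TCACAC match at 31 is the same site as the match at -42. No match to either motif is in the windows of Klri1, Lair1, Cd300a or Ceacam1. Of 32544 distinct promoter windows of this length, 14.3% hold TCACAC and 16.7% hold TGTGGT on either strand. The longer T-box core TCACACC, which is in the Cd160 window and in 3.95% of all windows, contains the shorter one. These are letter matches and show no binding.

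Library totals ran from 22633440 to 28327265 counts. Levels are given as CPM, the count of a gene relative to its library's total, and 1 count was worth at most 0.0442 CPM before scaling. Genes of the CD49a and CD49b gates went with the labels: Itga1 (CD49a) stood at 137 ± 41.6 CPM in ILC1 against 11.2 ± 3.56 CPM in cNK (SD, n = 3), Itga2 (CD49b) at 16.6 ± 7.29 and 107 ± 45.8 CPM, and Ncr1 (NKp46) at 1460 ± 357 and 1283 ± 148 CPM. Marker genes of other cells were also detected. Macrophage, monocyte and dendritic cell genes (15 listed) summed to 0.0715%, 0.0359% and 0.226% of all counts in ILC1 pools 1 to 3, and to between 0.0115% and 0.0163% in cNK. Of these 15, 4 were called higher in ILC1, namely Lyz2, Clec9a, Cd209a and Flt3, and each of the others overlapped between the populations. In ILC1 the sum was mostly Lyz2, at 447, 255 and 1616 CPM in pools 1 to 3. Lyz2 stood at 34.6, 61.0 and 71.3 CPM in cNK pools 1 to 3. A list of 9 kidney epithelial markers made up 0.0878%, 0.0262% and 0.257% in ILC1 and 0.0880%, 0.249% and 0.248% in cNK, and edgeR called 0 of them at the adjusted threshold. Mitochondrially encoded genes held 1.38% to 6.53% of counts in ILC1 and 3.15% to 12.7% in cNK. T cell markers, whose CD3 was gated out, summed to 0.0677%, 0.1001% and 0.0746% of counts in ILC1 and to 0.0380%, 0.0365% and 0.0414% in cNK, without overlap. Of these 11 genes, 1 was called, Cd3g, at 59.3 ± 13.2 CPM in ILC1 against 10.6 ± 2.57 CPM in cNK (edgeR adjusted p = 0.00384), while Cd3e stood at 2.65 ± 1.54 and 1.24 ± 1.07 CPM. Cd3d (6.38 ± 2.72 and 10.4 ± 3.31 CPM) and Trac (11.1 ± 3.04 and 15.5 ± 1.86 CPM) had the higher mean in cNK. The sum was mostly Trbc1 (311 ± 74.3 and 212 ± 14.4 CPM) and Trbc2 (354 ± 111 and 165 ± 18.3 CPM). No gene of the myeloid, epithelial or T cell list was at 0 throughout a population.

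In short, the cNK held mainly Klrg1, Klre1 and Klri2, and the ILC1 mainly Cd160 and Klre1. By edgeR's quasi-likelihood test, adjusted over 16144 genes with a threshold of 0.05, Klri1, Cd300a, Lilrb4a and Cd160 were higher in ILC1 and Klrg1, Klri2 and Lair1 were higher in cNK. That is 7 of 9 called, where 5.76% of all tested genes were called. By direction it is 4 of 9 higher in ILC1 (4.07% of all genes) and 3 of 9 higher in cNK (1.69%). Klre1 and Ceacam1 did not pass. For all 9 genes the 3 libraries of one population lay above the 3 of the other, 5 with ILC1 above and 4 with cNK above. Over all tested genes such a separation held for 24.0%, 15.0% with ILC1 above and 9.06% with cNK above. The median log2 fold change of the 9 was 1.45, against 0.01 over all tested genes, and it joins genes of opposite direction. Fold changes are ILC1 over cNK, and CPM values are scaled by TMM (trimmed mean of M values). In bulk samples such as these, fewer cells bearing a transcript and less of it per cell cannot be told apart.

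**Figure D1:**
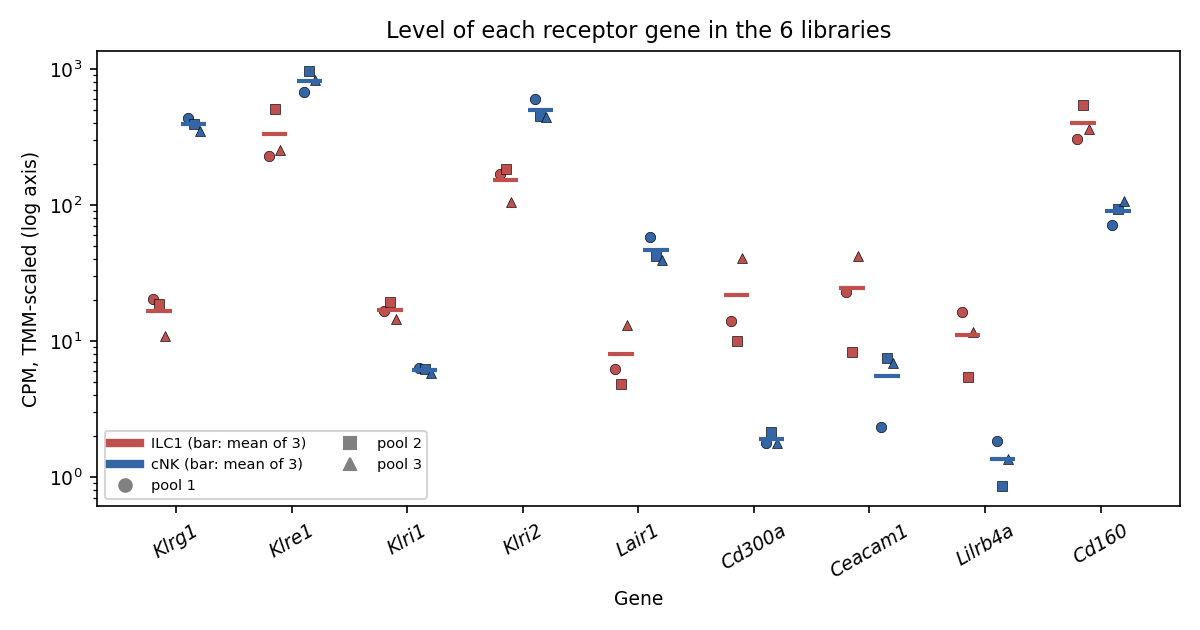
Level of each of the 9 genes in TMM-scaled CPM (log axis) in the 6 libraries, with ILC1 in red, cNK in blue, a symbol for each pool and a bar at the mean of 3. Klrg1 shows the widest gap, from 16.7 CPM on average in ILC1 to 392 CPM in cNK.

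Klrg1, the cadherin receptor, differed most of the 9. ILC1 pools 1 to 3 had 20.5, 18.7 and 10.9 CPM, and the gene stood at 436, 393 and 349 CPM in cNK pools 1 to 3. The lowest cNK library was thus far above the highest ILC1 library, and the cNK libraries varied little among themselves, with a coefficient of variation of 11.1% against 30.5% in ILC1. Mean levels were 16.7 ± 5.10 CPM for ILC1 and 392 ± 43.4 CPM for cNK (SD, n = 3), a 23.5-fold higher level in cNK. Its log2 fold change was -4.55 ± 0.31 (SE), with an edgeR adjusted p of 6.50e-04. This placed Klrg1 33rd of 16144 genes by p and 55th by size of change toward cNK. It was called under every alternative tried, with log2 fold changes from -4.88 to -4.14. In ILC1 the remaining level was still above that of most genes: per kilobase of exon it lay at the 76.1st percentile of 16122 genes, against the 98.7th in cNK.

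The nearest profiles to Klrg1 among 8537 genes of at least 10 CPM on average were those of Klra14-ps and Klra7, of the Ly49 receptor family, and of Phactr3, a regulator of protein phosphatase and actin. Their root mean square differences from Klrg1 in centred log2 CPM over the 6 libraries were 0.27, 0.28 and 0.29. Mean levels in ILC1 and cNK were 6.69 and 214 CPM for Klra14-ps, 19.4 and 491 CPM for Klra7, and 1.82 and 72.9 CPM for Phactr3. Klra genes are close copies of each other, so the values of single members are uncertain.

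The partner chains Klri1 and Klri2 went in opposite directions. Klri1, the chain with ITIMs, stood at 16.5, 19.4 and 14.4 CPM in ILC1 and at 6.30, 6.26 and 5.85 CPM in cNK. The 3 cNK values were nearly equal, and every ILC1 library was more than 2-fold above them. Its log2 fold change was 1.45 ± 0.21 (edgeR adjusted p = 0.00913), and without cNK pool 3 the adjusted p was 0.0724. Klri2, the chain of the activating pair, stood at 168, 183 and 105 CPM in ILC1 and at 598, 452 and 439 CPM in cNK. Every cNK library was above every ILC1 library, with pool 3 the lowest within ILC1 and pool 1 the highest within cNK. The log2 fold change of Klri2 was -1.71 ± 0.27 (edgeR adjusted p = 0.0132), and without cNK pool 3 the adjusted p was 0.0592.

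Within a library the balance of Klri2 to Klri1 does not depend on library size. There were 10.2, 9.46 and 7.27 counts of Klri2 for each count of Klri1 in ILC1 pools 1 to 3, and 95.0, 72.2 and 75.1 in cNK pools 1 to 3. The balance was therefore several times further toward Klri2 in each cNK library than in any ILC1 library. On the log2 scale, with a pseudocount of 0.5, the ratio averaged 3.15 ± 0.26 in ILC1 and 6.32 ± 0.21 in cNK (SD, n = 3). The difference, ILC1 minus cNK, was -3.17, with an exact permutation p of 0.1 (two-sided), which is the smallest that 3 against 3 can give. Per kilobase of exon, the ratio of Klri2 to Klri1 was between 1.56 and 2.19 in ILC1 and between 15.5 and 20.3 in cNK. That scaling rests on annotated exon lengths of 3.913 kb for Klri2 and 0.838 kb for Klri1, and reads outside these models were not counted. No 100-base window of the transcripts of Klri1 or Klri2 occurs in another gene's transcripts, while 5.83% of the 50-base windows of Klri1 occur in Klri2.

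Klre1, the shared partner, was abundant in both populations. It stood at 228, 508 and 255 CPM in ILC1 and at 675, 957 and 824 CPM in cNK. The populations did not overlap, but ILC1 pool 2 was about double the other ILC1 pools and lay closer to the cNK. Mean levels were 330 ± 155 CPM for ILC1 and 819 ± 141 CPM for cNK (SD, n = 3), and the log2 fold change of -1.31 ± 0.35 did not pass (edgeR adjusted p = 0.0881). Without ILC1 pool 2 it was -1.76 and passed (edgeR adjusted p = 0.0213), and the DESeq2 Wald test called it with all libraries (adjusted p = 0.00316). Per kilobase there was between 1.04 and 2.08 times as much Klre1 as Klri1 and Klri2 together in ILC1, and between 1.20 and 2.23 times in cNK, so the ranges of the populations overlapped. The nearest profiles to Klre1 were those of S100a13, Nkg7, a granule membrane protein of cytotoxic lymphocytes, and Cst7, which encodes the protease inhibitor cystatin F, at root mean square differences of 0.13, 0.13 and 0.17. For Nkg7 the mean levels were 2112 and 5701 CPM.

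**Figure D2:**
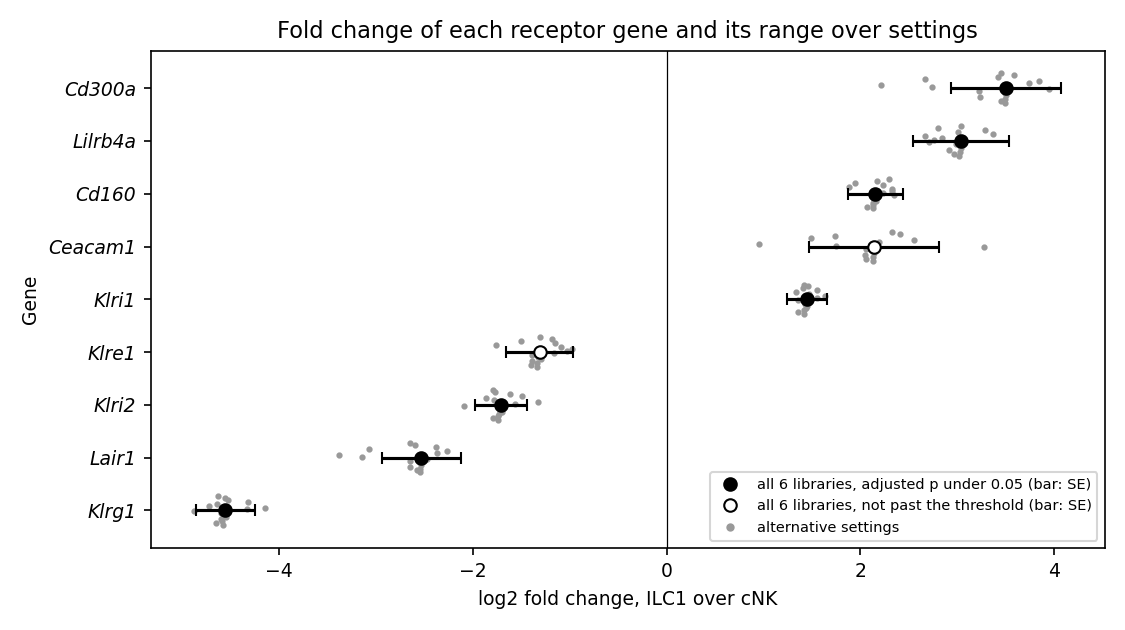
Log2 fold change (ILC1 over cNK) of each gene with all 6 libraries (black, bar: SE; filled where the edgeR adjusted p was under 0.05) and under each alternative setting (grey). Klri1 and Klri2 lie on opposite sides of 0, at 1.45 and -1.71, and no setting moved any of the 9 genes across 0.

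Cd160, the lipid-anchored receptor, had the highest mean level of the 9 in ILC1, also per kilobase of exon, where it was above Klre1 in each pool although their ranges overlapped. It stood at 307, 541 and 362 CPM in ILC1 and at 71.5, 92.7 and 107 CPM in cNK. The lowest ILC1 library was well above the highest cNK library, and ILC1 pool 2 was the highest, as it was for Klre1. The order of the ILC1 pools, in both genes, was that of the T cell marker share, which was mostly Trbc1 and Trbc2. Cd3g was also highest in ILC1 pool 2 (68.1 CPM), but Cd3e, Cd3d and Trac were highest in ILC1 pool 3 (4.42, 9.52 and 13.7 CPM). The part of T cells in the level of Cd160 or Klre1 was not tested. The means were 403 ± 122 and 90.5 ± 18.0 CPM (SD, n = 3), a 4.45-fold higher level in ILC1, and the log2 fold change was 2.16 ± 0.28 (edgeR adjusted p = 0.00669). It was called under every alternative tried, with log2 fold changes from 1.89 to 2.35. Of its annotated exons, 68 bases overlap Pdzk1 on the opposite strand, a gene with 1378 counts over the 6 libraries.

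Lair1, the collagen receptor, was higher in cNK. It stood at 6.18, 4.81 and 13.0 CPM in ILC1 and at 57.7, 42.2 and 39.1 CPM in cNK. No library of either population came near the other, and ILC1 pool 3 was more than double the other ILC1 pools. The log2 fold change was -2.53 ± 0.41 (edgeR adjusted p = 0.0152), and the fold in cNK over ILC1 was 5.79. Leaving out a library ended the call in 4 of 6 cases: the adjusted p became 0.0522 for ILC1 pool 1, 0.0505 for ILC1 pool 2, 0.0529 for cNK pool 1 and 0.0585 for cNK pool 3. Lair1 is also expressed by myeloid cells, and the ILC1 pool with its highest level was the pool with the highest myeloid marker share, 0.226%. That pool also had the highest epithelial marker share, 0.257%. Without that pool the log2 fold change was -3.07 (edgeR adjusted p = 0.00213), and with the myeloid share as a covariate it was -3.39 (edgeR adjusted p = 0.00550). The myeloid share, which in ILC1 was mostly Lyz2, was at least 0.0359% in ILC1 and at most 0.0163% in cNK. The covariate fit therefore cannot separate it from population. The same limit holds wherever this covariate is used below.

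Cd300a, the phosphatidylserine receptor, was higher in ILC1. It stood at 14.1, 9.96 and 40.6 CPM in ILC1 and at 1.79, 2.13 and 1.78 CPM in cNK. The cNK values lay close together and low, from 41 to 50 counts a library, whereas the ILC1 values were spread about 4-fold and pool 3 was the highest. The means were 21.6 ± 16.6 and 1.90 ± 0.201 CPM (SD, n = 3), and the log2 fold change was 3.50 ± 0.57 (edgeR adjusted p = 0.0155). Leaving out a cNK library ended the call, with an adjusted p of 0.0756 for pool 1, 0.0704 for pool 2 and 0.0953 for pool 3. Cd300a is also a gene of myeloid cells, and its order over the ILC1 pools was that of the myeloid marker share. The epithelial marker share had the same order, and an order over 3 pools cannot tell the shares apart. Without ILC1 pool 3 the log2 fold change was 2.67 (edgeR adjusted p = 0.00416), and with the myeloid share as a covariate, a fit added after the data were seen, it was 2.21 (edgeR adjusted p = 0.00924). The 3 nearest profiles to Cd300a, looked up after its values were seen, were those of Tgfbi, Clec12a and Clec7a, the latter pair being lectin receptors of myeloid cells, at root mean square differences of 0.20, 0.23 and 0.26.

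Lilrb4a, the gp49B receptor, was higher in ILC1 at a low level. It stood at 16.3, 5.46 and 11.6 CPM in ILC1 and at 1.83, 0.862 and 1.34 CPM in cNK, where it had 51, 19 and 31 counts. The populations did not overlap, and the order of the ILC1 pools was not that of the myeloid share, since pool 3, with the highest share, had less Lilrb4a than pool 1. Its log2 fold change was 3.04 ± 0.50 (edgeR adjusted p = 0.0158), with adjusted p = 0.0626 without cNK pool 2 and 0.0960 without cNK pool 3. With the myeloid share as a covariate the log2 fold change was 2.84 (edgeR adjusted p = 0.0476). Its transcripts share 35.2% of their 100-base windows with other genes, chiefly with the overlapping model Gm49339 and the paralog Lilr4b, so its own level is uncertain. Lilrb4a and Lilr4b summed to 90.7 ± 15.9 CPM for ILC1 and 17.6 ± 1.69 CPM for cNK (SD, n = 3), without overlap.

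Ceacam1, the homophilic adhesion receptor, did not pass the test. It stood at 22.9, 8.22 and 42.3 CPM in ILC1 and at 2.33, 7.44 and 6.89 CPM in cNK. The populations were separated only by the step from 7.44 to 8.22 CPM, and the ILC1 pools spread about 5-fold. The means were 24.5 ± 17.1 and 5.55 ± 2.81 CPM (SD, n = 3), and the log2 fold change was 2.14 ± 0.67 (edgeR adjusted p = 0.143). Without ILC1 pool 3 it was 1.49 (edgeR adjusted p = 0.175). The DESeq2 Wald test called it (adjusted p = 0.0147), as did edgeR with the mitochondrial share as a covariate (log2 fold change 3.28, adjusted p = 0.0238), whereas with the myeloid share as a covariate the log2 fold change was 0.96 (adjusted p = 0.451). Ceacam1 is expressed by epithelium as well as by leukocytes. Within ILC1 its order over the pools was that of both the myeloid and the epithelial marker share. Within cNK the library with the lowest level, pool 1, had the lowest epithelial share, 0.0880% against 0.249% and 0.248%. The myeloid share of cNK pool 1, 0.0115%, was also the lowest but close to the 0.0119% of cNK pool 3. The part of either share in the level of Ceacam1 was not tested further. Of its 100-base transcript windows, 20.5% also occur in Ceacam2, whose own mean levels were 1.22 and 0.416 CPM.

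**Figure D3:**
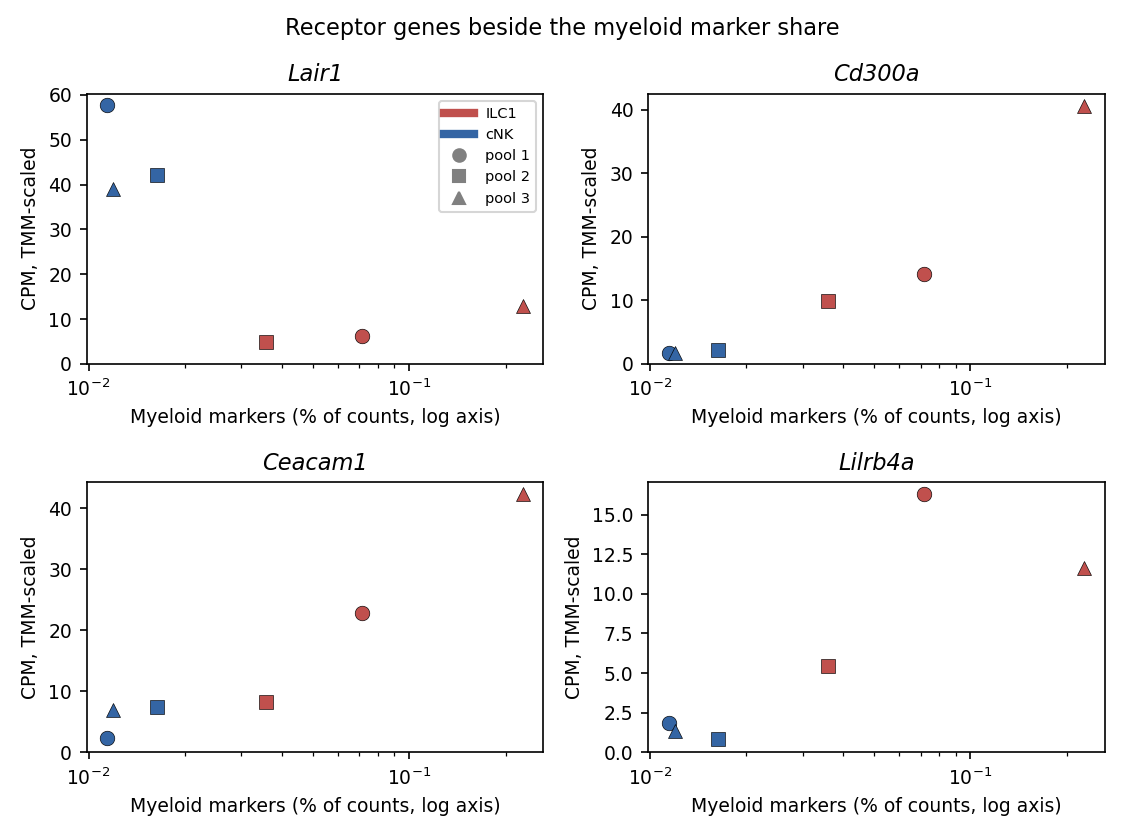
TMM-scaled CPM of Lair1, Cd300a, Ceacam1 and Lilrb4a against the share of counts in 15 myeloid marker genes (log axis), with a point for each library, ILC1 in red and cNK in blue. ILC1 pool 3, at 0.226%, had the highest Cd300a and Ceacam1 of all libraries, while the cNK libraries, at 0.0115% to 0.0163%, had the highest Lair1.

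Levels of different genes were compared per kilobase of annotated exon. In ILC1 the order was Cd160 (153 ± 46.2 CPM per kb), Klre1 (94.6 ± 44.2), Klri2 (38.9 ± 10.7), Klri1 (19.997 ± 2.98) and Klrg1 (11.8 ± 3.61), then Cd300a, Ceacam1, Lilrb4a and Lair1 at means of 4.55 down to 1.07 CPM per kb. The ranges of Cd160 and Klre1 over the ILC1 pools overlapped, as did those of each neighbouring pair from Klrg1 to Lair1. Within each of the 3 pools, however, Cd160 was above Klre1, Ceacam1 above Lilrb4a and Lilrb4a above Lair1, while Klrg1 was above Cd300a and Cd300a above Ceacam1 in 2 of 3. In cNK the order was Klrg1 (278 ± 30.7 CPM per kb), Klre1 (234 ± 40.4), Klri2 (127 ± 22.6), Cd160 (34.3 ± 6.82), Klri1 (7.32 ± 0.296) and Lair1 (6.20 ± 1.33), then Ceacam1, Cd300a and Lilrb4a, each at a mean below 1 CPM per kb. There the neighbours whose ranges overlapped were Klrg1 with Klre1, Klri1 with Lair1, and Ceacam1 with Cd300a, and the order within a library held in 3 of 3 for Klrg1 over Klre1 and for Ceacam1 over Cd300a, and in 2 of 3 for Klri1 over Lair1.

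As a share of the summed level per kilobase of the 9 genes, Klrg1 made up 3.71 ± 1.44% in ILC1 and 40.3 ± 3.37% in cNK (SD, n = 3). Cd160 made up 46.2 ± 2.80% and 5.01 ± 1.19%. The gene with the highest share was thus Cd160 in each ILC1 library and Klrg1 in each cNK library. In cNK pool 2, however, Klrg1 (38.7%) was barely above Klre1 (38.2%). The share of Klre1 ranged from 24.2% to 33.2% in ILC1 and from 27.7% to 38.2% in cNK, with overlap. Klri1 made up 6.23 ± 1.02% in ILC1 and 1.06 ± 0.0207% in cNK. The summed level of all 9 was 270, 439 and 282 CPM per kb in ILC1 pools 1 to 3 and 697, 718 and 649 CPM per kb in cNK pools 1 to 3.

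**Figure D4:**
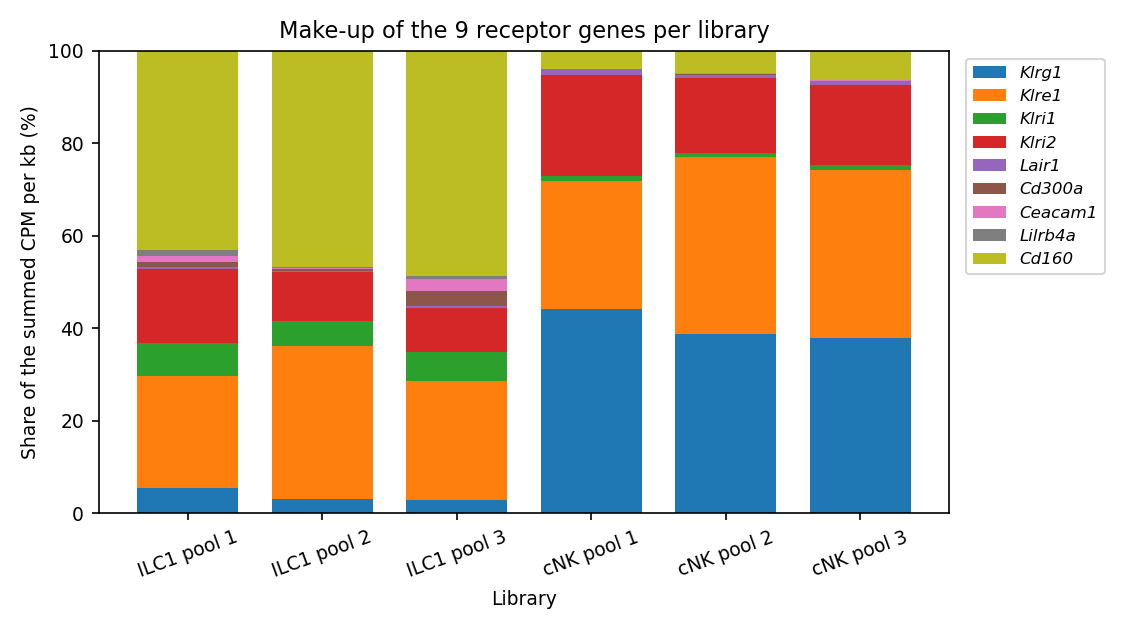
Share (%) of each gene in the summed CPM per kb of the 9 genes, stacked, for each of the 6 libraries. Cd160 fills 43.1% to 48.7% of each ILC1 bar and 3.88% to 6.26% of each cNK bar, while Klrg1 fills 38.0% to 44.2% of each cNK bar.

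Genes that act downstream of ITIMs were expressed in both populations. Of 18 listed and tested, 4 were called higher in ILC1 and 1 was called higher in cNK, where 4.07% and 1.69% of all tested genes were called in those directions. The median log2 fold change was 0.44 against 0.01 over all tested genes. Among those higher in ILC1 were Pag1, the membrane adaptor that recruits the kinase Csk (log2 fold change 1.47 ± 0.23, edgeR adjusted p = 0.0132), and the Src-family kinase Fgr (1.39 ± 0.25, adjusted p = 0.0201). The adaptor Dok1 was also higher in ILC1 (0.94 ± 0.21, adjusted p = 0.0494). Fyn, another Src-family kinase, was higher in cNK, at 643 ± 165 CPM against 224 ± 52.6 CPM (log2 fold change -1.52 ± 0.27, edgeR adjusted p = 0.0218). The phosphatases that ITIMs recruit did not pass: Ptpn6 (SHP-1) stood at 266 ± 51.1 CPM for ILC1 and 165 ± 35.9 CPM for cNK, Ptpn11 (SHP-2) at 57.5 ± 5.95 and 67.5 ± 4.79 CPM, and Inpp5d (SHIP-1) at 249 ± 120 and 188 ± 82.5 CPM. These phosphatases were named after their values were seen. Only 2 effectors were higher in ILC1 when ILC1 pool 2 or cNK pool 2 was left out and 1 when cNK pool 3 was, and Fyn was not called without ILC1 pool 2 or cNK pool 3.

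Ligand genes in the same libraries gave no call. Of 16 listed, 9 could be tested, and edgeR called 0. At an unadjusted edgeR p below 0.05 there was 1, Fn1 (fibronectin), higher in ILC1. DESeq2 called 1 higher in ILC1 and limma-voom 0, and edgeR called 1 there without ILC1 pool 2. The members of the highest level were Cdh1, which encodes the Klrg1 ligand E-cadherin, at 36.3 ± 32.3 CPM for ILC1 and 41.2 ± 17.4 CPM for cNK, and the complement genes C1qb (23.7 ± 21.5 and 22.1 ± 13.9 CPM) and C1qc (16.9 ± 16.5 and 15.2 ± 9.55 CPM), whose product binds LAIR1. Cdh1 stood at 22.6, 13.2 and 73.2 CPM in ILC1 and at 30.7, 61.3 and 31.5 CPM in cNK, and its order over the ILC1 pools was that of the epithelial marker share. Tnfrsf14, which encodes the ligand of Cd160, stood at 10.6 ± 2.21 and 9.81 ± 0.0527 CPM.

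Close relatives of the receptors were also compared. Of 27 listed, 20 were in the table and 16 were tested. The test called 8 as higher in ILC1 and 1 as higher in cNK, against 4.07% and 1.69% of all tested genes. The median log2 fold change was 2.6, against 0.01 over all tested genes. Of the relatives called higher in ILC1, Cd300c2, Cd300ld, Pirb, Pira2, Lilra6 and Clec12a were highest in ILC1 pool 3. That pool had the highest myeloid and epithelial marker shares. Btla and Lilr4b were highest in ILC1 pool 1. The part of either share in these levels was not tested further. Btla, an inhibitory receptor that shares the ligand Tnfrsf14 with Cd160, stood at 17.0 ± 2.22 CPM for ILC1 and 0.627 ± 0.158 CPM for cNK (log2 fold change 4.76 ± 0.30, edgeR adjusted p = 5.69e-04). Lilr4b stood at 79.6 ± 10.8 and 16.3 ± 1.87 CPM (2.29 ± 0.19, adjusted p = 0.00128). Clec12a, an ITIM receptor of myeloid cells, stood at 16.8, 15.7 and 38.7 CPM in ILC1 against at most 2.64 CPM in cNK (3.30 ± 0.42, adjusted p = 0.00645). The exception was Cd300lf, an ITIM receptor beside Cd300a in its gene family, which was higher in cNK at 30.5 ± 6.65 CPM against 2.58 ± 1.27 CPM (-3.57 ± 0.45, adjusted p = 0.00644). Cd300a and Cd300lf were thus called in opposite directions. The count of relatives higher in ILC1 fell to 4 when cNK pool 1 or cNK pool 2 was left out, to 3 when cNK pool 3 was, and to 5 with the myeloid share as a covariate.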

How the data were processed

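The deposited table holds unnormalized read counts for each gene in 6 libraries, and 2 further columns in which the authors averaged the 3 counts of each population (a mean signal, checked against the counts and used for nothing else). The tools listed in the submitters' processing notes are STAR 2.6.1, Trimmomatic 0.38, DESeq2 1.30.0, DESeq and R 4.03, with the build GRCm38. How reads were counted (program, annotation release, strand, shared reads) is not given in the sources used here. A row without a gene identifier (1 row) was left out, and 23798 of 23841 identifiers matched GENCODE M21, which gave positions and exon lengths.

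Counts were tested with edgeR 4.0.16 (R 4.3.3): TMM scaling, the filterByExpr filter by population (16144 genes kept), robust quasi-likelihood fitting with population as the only term, and p-values adjusted by Benjamini-Hochberg with a threshold of 0.05. Each SE is the log2 fold change divided by the square root of its F statistic. The procedure was tested on simulated data. Alternatives used DESeq2 1.42.0, limma 3.58.1 (voom), other factors, filters and covariates, and left out libraries.

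The genes and lists were chosen with earlier results of these data known. All 9 receptor genes are named. From each list of related genes, the up to 3 called genes of smallest adjusted p per direction are named, or else the 3 of highest level; 1 gene that the rule names is not reported here. For Klrg1 and Klre1 the 3 nearest profiles in log2(CPM + 0.5) are named. Dok1, Fn1, Tnfrsf14, Ptpn6, Ptpn11, Inpp5d, Ceacam2 and the nearest profiles to Cd300a were named after their values were seen. Lilr4b was added to the relatives after the table was read.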

Additional observations from a re-analysis of the deposited data

How the results depend on the processing

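The direction of each of the 9 genes held under all 16 alternative fits, and 128 of 144 of those values stayed on the same side of the threshold. Over leaving out 1 library at a time, log2 fold changes ranged from -1.76 to -1.10 for Klre1, 1.33 to 1.55 for Klri1, -1.86 to -1.50 for Klri2, -3.07 to -2.27 for Lair1, 2.67 to 3.85 for Cd300a, 1.49 to 2.56 for Ceacam1 and 2.66 to 3.37 for Lilrb4a. Klre1 was called by the DESeq2 Wald test (-1.34), and Ceacam1 by that test (2.13) and with the mitochondrial share as covariate (3.28). The log2 ratio of Klri2 to Klri1 differed by -3.27 to -3.02 without 1 library.

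Calls over all genes numbered 657 toward ILC1 and 273 toward cNK. These counts were 1153 and 693 by the DESeq2 Wald test, 263 and 108 at an adjusted p under 0.01, and 214 to 695 and 93 to 672 without 1 library. Leaving out ILC1 pool 3 alone gave 695 and 672, so most of the excess toward ILC1 was not present without that library. Leaving out ILC1 pool 3 together with cNK pool 2 gave 481 and 431. With the myeloid share as covariate, a fit chosen after seeing the data, they were 460 and 476. The excess toward ILC1 was thus not present with that covariate, but the share did not overlap between the populations. That fit therefore cannot separate the share from population. Of the ITIM effectors, 1 to 4 were higher in ILC1 and 0 to 1 in cNK without 1 library. Without both libraries 2 were higher in ILC1, and with the myeloid share 0 were higher in cNK. Ligands higher in ILC1 were 1 by DESeq2 and 0 to 1 without 1 library, and relatives 5 with the myeloid share and 3 to 8 without 1 library.

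Pools of the same number were not stated to share mice. Their deviations correlated at 0.53, -0.13 and 0.06 for pools 1 to 3, and not every library correlated best with its own number, so the numbers were not taken as pairs. With pool number as a replicate block, the counts over all genes were 1107 for ILC1 and 675 for cNK, 7 ITIM effectors were higher in ILC1, and Klre1 was called (-1.39). Depth limits Lilrb4a and Cd300a most, at 19 to 51 counts in each cNK library.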
